A study of Mus musculus with 12 samples.

Results

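Serpins are a family of proteins that fold alike and mostly block serine proteases by trapping them in a covalent complex, although some members carry hormones or help other proteins to fold. The liver is the main source of the serpins of blood plasma, among them α1-antitrypsin, antithrombin, heparin cofactor II, α2-antiplasmin and C1 inhibitor. The family is divided into lettered clades, of which clade A is largely secreted, clade B acts mostly inside cells, and clade H is a collagen chaperone of the endoplasmic reticulum. All genes whose array annotation gives a single symbol beginning with Serpin were taken, and where a gene had several probe sets the brightest on average stood for it. This gave 40 of the 18194 genes tested, with 14 genes of clade A, 18 of clade B, 2 each of clades F and I, and 1 each of clades C, D, G and H. Clade E was not analysed here. The rule for membership used symbols and mean levels and no difference between groups, but it was set with earlier results of these data known.

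RNA of whole liver from male Balb/c mice was measured on 12 Affymetrix mouse genome arrays, 3 for each of 4 groups, as log2 expression values. The mice were obtained at an age of 8 weeks, and were older by the length of acclimatization and treatment when the livers were taken. The groups were shLFAR1+CCl4, NC+CCl4, shLFAR1 and NC, where shLFAR1 is a lentivirus carrying a short hairpin RNA against the long noncoding RNA lnc-LFAR1, NC is the control lentivirus, and CCl4 is carbon tetrachloride, a hepatotoxin that causes fibrosis when given repeatedly. CCl4 was given intraperitoneally as a 5% solution in olive oil at 0.3 ml/kg, 3 injections weekly, and the other groups received oil. Every mouse received a virus through the tail vein after 2 weeks of injections, and treatment lasted 4 more weeks, so no group was free of virus. The virus was given through the circulation and not to a single liver cell type. The labels call the replicates biological, so the p-values measure the spread between these liver samples.

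The 10 hepatocyte markers averaged between 12.4 and 12.7 log2 units on every array, as the labelled tissue requires. On the first principal component of all genes, shLFAR1+CCl4 replicate 3 lay at 39.2, within the NC+CCl4 range of 34.8 to 48.8, whereas replicates 1 and 2 of its group lay at -6.80 and -9.66 and the 6 oil arrays between -26.7 and -20.4. NC+CCl4 replicate 1 differed from the rest in the 3′ minus 5′ signal of Gapdh, at 0.72 log2 units against -0.21 to 0.03 on the other arrays. The model for all tests was limma with 4 group means over 12 arrays, and a gene was called at a Benjamini-Hochberg adjusted p under 0.05 over all 18194 genes.

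The serpins covered the whole range of liver transcripts. The median gene of the array averaged 5.59 log2 units, and 19 of the 40 serpins lay above it, 10 of 14 in clade A and 3 of 18 in clade B. In all 11 serpins averaged more than 11 log2 units, and all of these encode secreted proteins. The α1-antitrypsin genes Serpina1c and Serpina1b, whose product protects tissue from neutrophil elastase, were the highest, at 14.20 and 14.11 on average. Antithrombin, Serpinc1, which blocks thrombin and factor Xa, followed at 13.22, and then Serpinf1, which encodes the antiangiogenic pigment epithelium-derived factor, at 12.54. The C1 inhibitor gene Serping1, the α2-antiplasmin gene Serpinf2, the heparin cofactor II gene Serpind1 and Serpina10, whose product blocks factor Xa together with protein Z, averaged between 11.82 and 12.37. In clade B the highest mean was 7.53, for Serpinb6a, an inhibitor inside cells, and 15 of its 18 genes lay below the median gene, at levels where a deposited value may be background. In clade I the highest was the neuroserpin gene Serpini1, at 4.37. Levels of different genes come from different probe sets and give only a rough order.

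**Figure D1:**
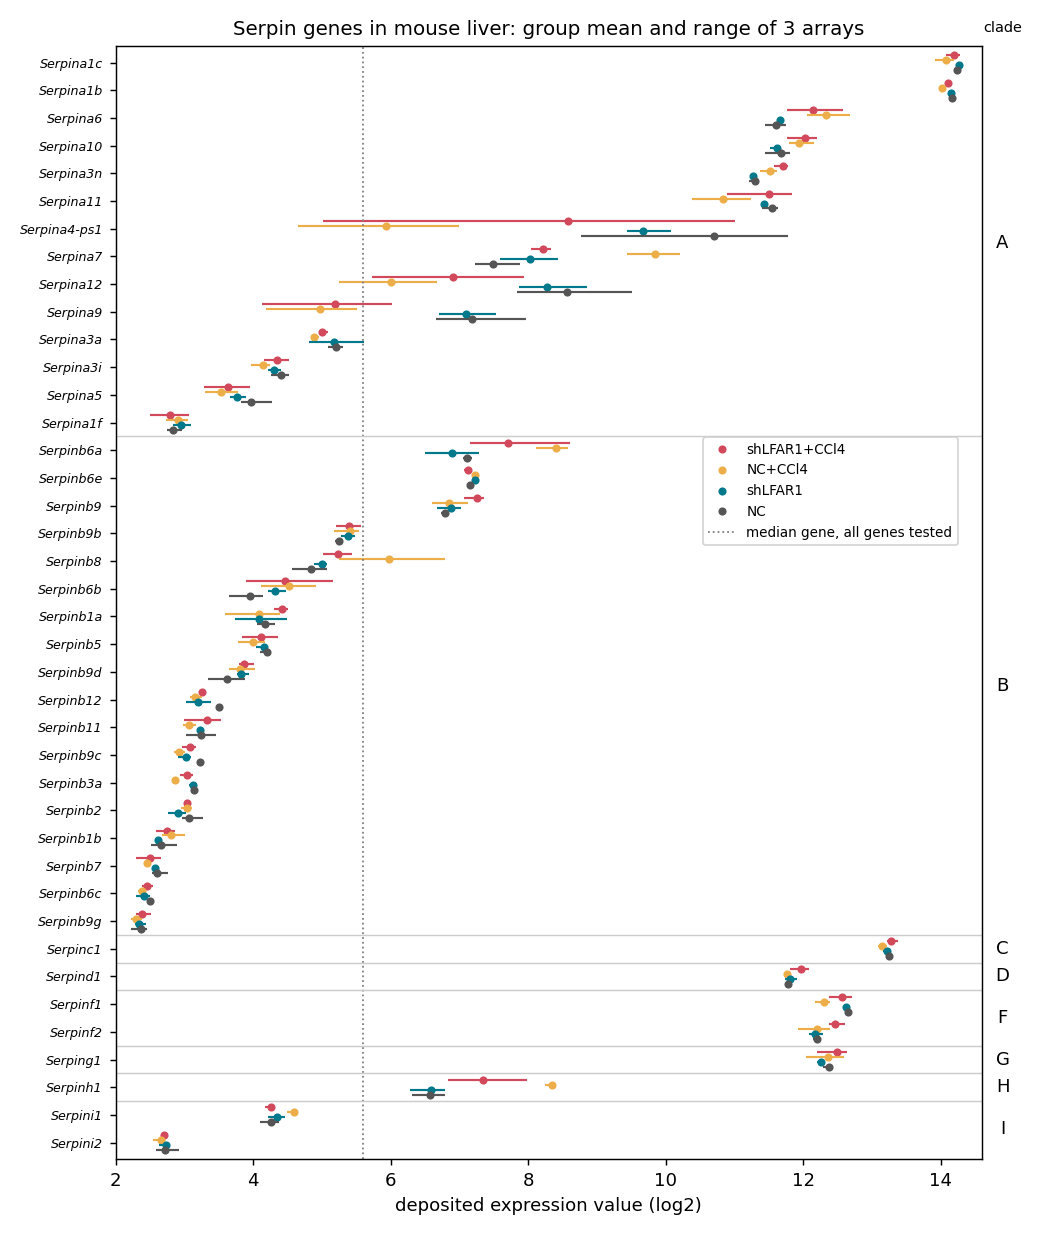
Deposited log2 value (x axis) of the 40 serpin genes (rows, by clade and then by mean), with the mean (point) and range (line) of 3 arrays in shLFAR1+CCl4, NC+CCl4, shLFAR1 and NC. Clade A spans 2.87 to 14.20 log2 units in mean level, while 15 of 18 clade B genes lie left of the dotted line at the median gene, 5.59.

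Among the abundant serpins of plasma, 5 that were called in no comparison are given first. Serpinc1 read 13.37, 13.22 and 13.25 in shLFAR1+CCl4, 13.15, 13.23 and 13.09 in NC+CCl4, 13.16, 13.26 and 13.22 in shLFAR1, and 13.28, 13.23 and 13.22 in NC. These groups overlapped, and NC+CCl4 differed from NC by -0.09 ± 0.06 log2 units (SE, n = 3 arrays per group, limma adjusted p = 0.367). Serpind1 averaged 11.97 ± 0.15 in shLFAR1+CCl4, 11.77 ± 0.04 in NC+CCl4, 11.82 ± 0.09 in shLFAR1 and 11.78 ± 0.04 in NC (SD, n = 3 each). Serping1 read 12.64, 12.62 and 12.21 in shLFAR1+CCl4, 12.46, 12.59 and 12.04 in NC+CCl4, 12.29, 12.21 and 12.27 in shLFAR1, and 12.43, 12.40 and 12.29 in NC. Its lowest values in both CCl4 groups were those of replicate 3. Serpinf2, whose protein inactivates plasmin, read 12.60, 12.41 and 12.38 in shLFAR1+CCl4, 12.39, 12.30 and 11.92 in NC+CCl4, 12.14, 12.29 and 12.09 in shLFAR1, and 12.21, 12.23 and 12.15 in NC. Serpina10 read 12.13, 12.20 and 11.77 in shLFAR1+CCl4, 11.88, 11.80 and 12.15 in NC+CCl4, 11.67, 11.52 and 11.65 in shLFAR1, and 11.76, 11.81 and 11.45 in NC. Between shLFAR1+CCl4 and shLFAR1 the arrays did not overlap for Serpina10 (0.42 ± 0.13, adjusted p = 0.244) and Serpinf2 (0.29 ± 0.11, adjusted p = 0.356), and neither was called. With 1 probe set per gene, the largest change in NC+CCl4 against NC among the 11 serpins above 11 log2 units was 0.73, for Serpina6. The second Serpinf1 probe set changed more (-0.78 ± 0.20, adjusted p = 0.0297 over all probe sets).

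Serpina1c and Serpina1b belong to a group of near-identical neighbours in which probes can read more than 1 gene. Serpina1c read 14.23, 14.28 and 14.08 in shLFAR1+CCl4, 14.13, 14.19 and 13.92 in NC+CCl4, 14.31, 14.25 and 14.26 in shLFAR1, and 14.22, 14.26 and 14.23 in NC. Serpina1b read 14.10, 14.10 and 14.11 in shLFAR1+CCl4, 14.07, 13.99 and 14.01 in NC+CCl4, 14.17, 14.10 and 14.19 in shLFAR1, and 14.15, 14.16 and 14.19 in NC. In both genes every NC+CCl4 array lay below every NC array, with mean differences of -0.16 ± 0.07 and -0.14 ± 0.05 log2 units, and neither was called (adjusted p = 0.159 and 0.0676). In a test over all probe sets, the second Serpina1b probe set was called lower (-0.19 ± 0.05, adjusted p = 0.0305), as were a probe set shared by Serpina1d and Serpina1a (-0.26 ± 0.06, adjusted p = 0.0285) and one shared by Serpina1e, Serpina1c and Serpina1b (-0.64 ± 0.17, adjusted p = 0.0382). The values are therefore those of the α1-antitrypsin group and not surely of single genes. How alike the members are outside the coding part is seen in their promoters, taken from RefSeq on GRCm38.p6 as 300 bases around the start, where 276 bases are identical and 22 mismatched in the aligned part, 92.6% identity. Capitals mark GTTAAT, a core motif of sites for the liver factor HNF1, and CAGAC or its reverse complement GTCTG, the Smad box.
Serpina1c (chr12:103904901-103905200, minus strand): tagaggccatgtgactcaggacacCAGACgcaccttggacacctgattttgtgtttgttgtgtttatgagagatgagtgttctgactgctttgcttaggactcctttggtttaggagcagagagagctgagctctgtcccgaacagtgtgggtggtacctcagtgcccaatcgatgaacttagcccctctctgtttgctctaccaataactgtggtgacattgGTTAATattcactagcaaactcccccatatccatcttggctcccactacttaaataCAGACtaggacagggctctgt
Serpina1b (chr12:103738140-103738439, minus strand): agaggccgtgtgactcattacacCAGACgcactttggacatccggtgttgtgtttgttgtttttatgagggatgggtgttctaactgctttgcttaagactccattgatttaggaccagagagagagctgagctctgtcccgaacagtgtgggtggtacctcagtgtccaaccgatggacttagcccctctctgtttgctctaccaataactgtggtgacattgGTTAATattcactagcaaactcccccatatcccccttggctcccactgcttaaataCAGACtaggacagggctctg
Both carry 1 GTTAAT and 2 CAGAC at nearly the same positions.

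NC+CCl4 against NC asks what CCl4 did under the control virus. Of 40 serpins 12 were called, 5 higher and 7 lower, or 30.0%, where 13.1% of all genes were called (7.66% higher and 5.4% lower). Unadjusted p was under 0.05 for 18 serpins, against 27.1% of all genes. The median log2 change was -0.06 over the family, -0.21 in clade A, -0.05 in clade B, -0.17 in clade F and -0.05 over all genes. Clade A held the extremes in both directions, with 2 genes higher, 3 lower and a range of -4.76 to 2.36. Clade B had 2 higher and 3 lower within -0.35 to 1.29, clade F had 1 of 2 lower, and the clade H gene Serpinh1 was higher. The clades also differed in level, with 10 of 14 clade A genes and 3 of 18 clade B genes above the median gene. Of 9097 genes above it 853 were called higher and 793 lower, against 540 and 189 of 9097 below it. The part of level in the contrast of clades was not tested. Arrays of the groups did not overlap for 3 clade A genes that were higher and 9 that were lower, and for 2 and 5 in clade B, where 13.8% and 15.8% of all genes were so separated (29.6% in either direction). Of the 10 hepatocyte markers 2 were called lower, Cyp2e1 and Cyp1a2, and none higher, and their part in the clade values was not tested. Because these are whole liver samples, fewer cells of a type and less RNA per cell cannot be told apart.

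**Figure D2:**
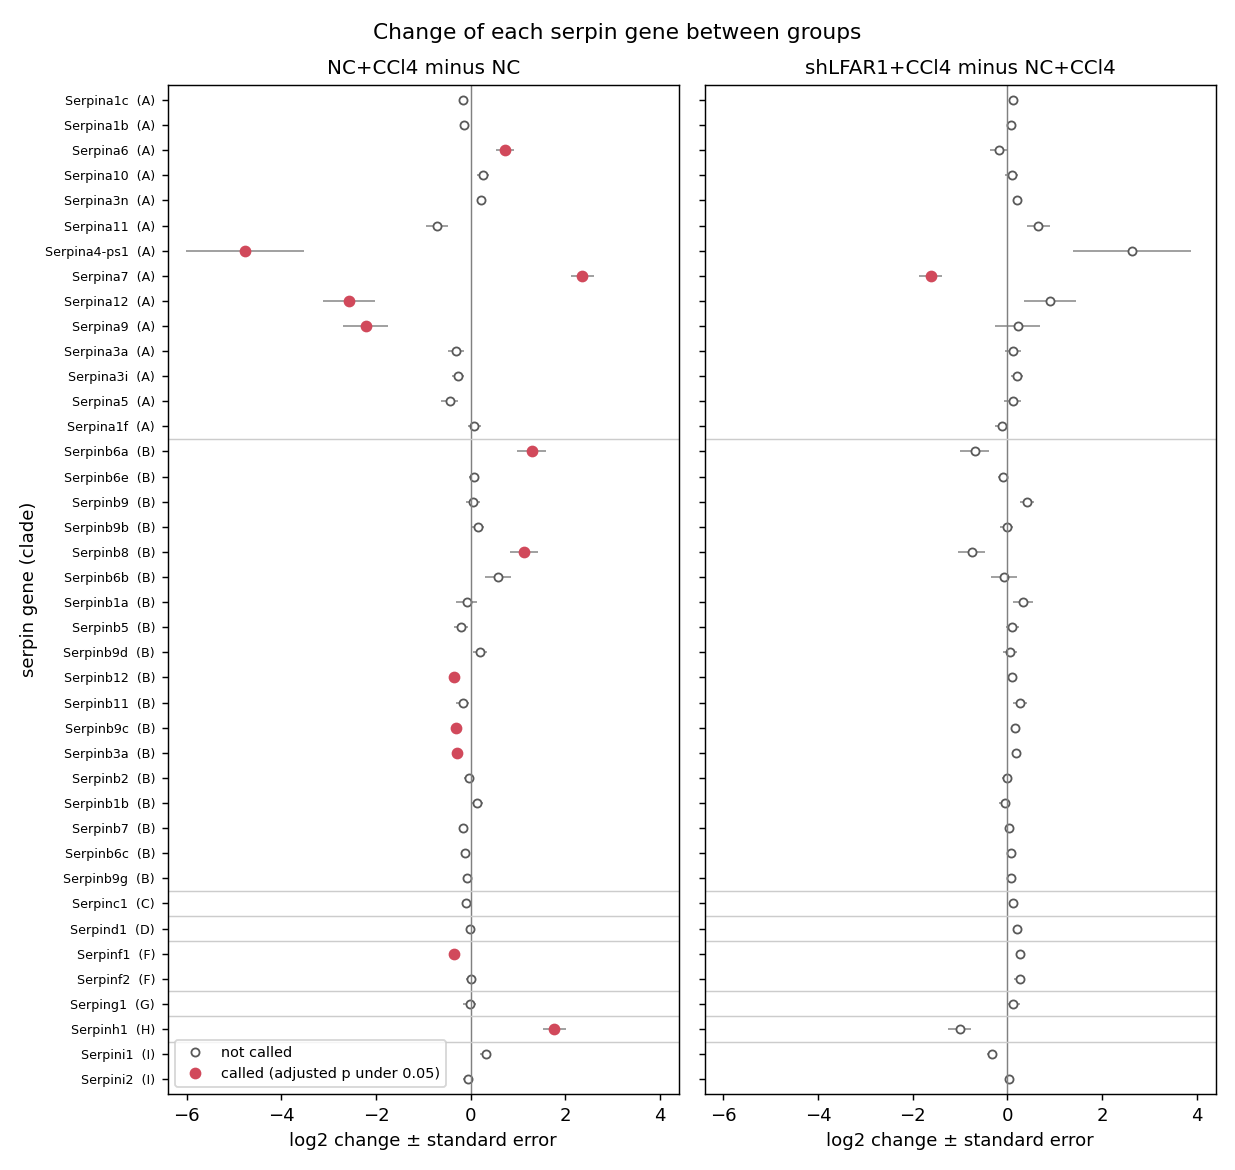
Log2 change with its standard error (x axis) of each of the 40 serpin genes (rows, clade in parentheses) in NC+CCl4 minus NC (left) and shLFAR1+CCl4 minus NC+CCl4 (right), with red points for called genes and open points for the others. On the left 12 genes are called, from -4.76 to 2.36, and on the right only Serpina7, at -1.62.

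The serpins that carry hormones rose with CCl4 under the control virus. Serpina7, thyroxine-binding globulin, read 10.21, 9.44 and 9.89 in NC+CCl4 and 7.22, 7.34 and 7.89 in NC, with 7.59, 8.03 and 8.44 in shLFAR1. All NC+CCl4 arrays lay above all oil arrays, and the change was 2.36 ± 0.24 (adjusted p = 0.00023), or 5.14-fold, the largest rise in the family. Serpina6, corticosteroid-binding globulin, read 12.06, 12.25 and 12.69 in NC+CCl4 and 11.76, 11.45 and 11.61 in NC, a rise of 0.73 ± 0.19 (1.66-fold, adjusted p = 0.0238). Its call was lost without NC replicate 2 or 3 or NC+CCl4 replicate 3, with adjusted p of 0.0930, 0.0646 and 0.0872. Of 7 other genes of hormone carriage and response none rose and 1 fell, Thrb, a thyroid hormone receptor, by 0.80 ± 0.21 log2 units (adjusted p = 0.0252). Albumin, Alb, which also carries thyroid hormone and is the highest of these, had a log2 change of 0.13 ± 0.05 (adjusted p = 0.136).

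Serpinh1, the collagen chaperone HSP47, rose beside the collagens that it binds. It read 8.25, 8.40 and 8.39 in NC+CCl4 and 6.31, 6.79 and 6.63 in NC, so that the groups were separated by more than 1 log2 unit. The rise was 1.77 ± 0.24 (3.41-fold, adjusted p = 0.00124), and its second probe set rose by 2.24 ± 0.37 (adjusted p = 0.0035 over all probe sets). The call held in all 25 alternatives. Of 12 collagens and folding partners 8 rose and none fell, with Col1a1 at 3.81 ± 0.57 (adjusted p = 0.00187), while the prolyl hydroxylase subunit P4hb, the highest of them, had 0.24 ± 0.08 (adjusted p = 0.0665). Of 10 markers of stellate cells and myofibroblasts 8 rose, Col1a1, Col1a2 and Col3a1 being in both lists. The mean level of these markers was 8.48 to 8.65 log2 units in NC+CCl4 against 6.34 to 6.64 in NC, and its part in the Serpinh1 result was not tested.

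Within clade B, Serpinb6a and Serpinb8 rose. Serpinb6a read 8.11, 8.52 and 8.58 in NC+CCl4 and 7.18, 7.09 and 7.06 in NC, a rise of 1.29 ± 0.31 (2.45-fold, adjusted p = 0.0172) with no overlap. Serpinb8, which in human cells is known as an inhibitor of furin, read 6.79, 5.25 and 5.92 in NC+CCl4 and 4.56, 4.91 and 5.08 in NC (1.14 ± 0.29, 2.20-fold, adjusted p = 0.0237). NC+CCl4 replicate 1 gave its highest value, and also in the second Serpinb8 probe set (7.03, 5.13 and 5.33 in NC+CCl4, against 4.19, 4.11 and 4.20 in NC), which was called too. Without that replicate neither direction nor call of Serpinb8 changed. Serpinb6a was just over the threshold without any 1 of the NC replicates or without NC+CCl4 replicate 3 (adjusted p between 0.051 and 0.0578), and Serpinb8 lost its call without NC replicate 1 or 2 or NC+CCl4 replicate 3 (0.0942, 0.0638 and 0.0535).

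Other clade B genes that were called were low and moved little. Serpinb12 read 3.09, 3.12 and 3.26 in NC+CCl4 and 3.48, 3.56 and 3.47 in NC (-0.35 ± 0.10, adjusted p = 0.0342). Serpinb9c read 2.85, 3.00 and 2.89 in NC+CCl4 and 3.20, 3.20 and 3.26 in NC (-0.31 ± 0.09, adjusted p = 0.0349). Serpinb3a read 2.83, 2.85 and 2.91 in NC+CCl4 and 3.12, 3.15 and 3.15 in NC (-0.28 ± 0.08, adjusted p = 0.0313). All 3 lie well below the median gene, and each lost its call in 13 or 14 of the alternatives, among them the fit without NC+CCl4 replicate 1 (adjusted p = 0.0893, 0.0904 and 0.0743 in the order given). The granzyme B inhibitor Serpinb9 and the neutrophil elastase inhibitor Serpinb1a were not called, with changes of 0.05 ± 0.15 and -0.08 ± 0.21. Of 9 serine proteases of leukocytes, the targets of several clade B serpins, none was called, and the largest change was that of Prtn3 (1.11 ± 0.44, adjusted p = 0.119). Of 5 lysosomal cathepsins, another group of clade B targets, Ctsb, Ctsk and Ctss rose, Ctss by 3.36 ± 0.40 log2 units (adjusted p = 0.00051), while Ctsl, the highest of them, had 0.19 ± 0.11 (adjusted p = 0.287). Macrophage markers averaged 7.79 to 8.59 log2 units in NC+CCl4 against 6.50 to 6.85 in NC, with 4 of 8 called higher and none lower. Neutrophil markers averaged 5.60 to 5.97 in NC+CCl4 against 4.28 to 4.51 in NC, with 3 of 5 called higher (S100a8, S100a9 and Csf3r) and none lower. The part of both cell types in the clade B, protease and cathepsin values was not tested.

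Of 4 neighbouring clade A genes on chromosome 12, 3 fell. Serpina4-ps1, annotated as a transcribed pseudogene, read 7.0, 6.16 and 4.66 in NC+CCl4 and 11.78, 11.56 and 8.77 in NC. The log2 change was -4.76 ± 1.24 (27.2-fold lower, adjusted p = 0.0251), the largest in the family, and the replicates of both groups were far apart from each other. Its other 2 probe sets were also called lower, with log2 changes of -4.46 ± 1.23 and -3.93 ± 0.98. Serpina12, the adipokine vaspin, read 6.68, 6.10 and 5.25 in NC+CCl4 and 7.84, 9.51 and 8.36 in NC (-2.56 ± 0.55, 5.90-fold lower, adjusted p = 0.00989), while its second probe set, at 2.99 to 3.84 log2 units over the 12 arrays, was not called (-0.37 ± 0.16, adjusted p = 0.192 over all probe sets). Serpina9, known in human B cells of germinal centres, read 5.51, 5.20 and 4.19 in NC+CCl4 and 6.66, 7.96 and 6.92 in NC (-2.21 ± 0.48, 4.64-fold lower, adjusted p = 0.0102). In both genes NC replicate 2 was the highest array of the study and NC+CCl4 replicate 3 the lowest of its group. Serpina11 read 10.91, 11.24 and 10.38 in NC+CCl4 and 11.61, 11.64 and 11.40 in NC, with no overlap, and was not called (-0.71 ± 0.24, adjusted p = 0.0685). It was called with the replicate number as a block (adjusted p = 0.017), although the labels do not pair arrays by that number. It was also called without shLFAR1+CCl4 replicate 3, which enters this comparison only through the shared estimate of the spread (0.0097). The Serpina4-ps1 call was lost without NC replicate 1 or 2 or NC+CCl4 replicate 3 (adjusted p = 0.0953, 0.0930 and 0.0896), whereas those of Serpina12 and Serpina9 held without any 1 array.

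In the RefSeq annotation of GRCm38.p6 these 4 genes follow each other in the order Serpina11, Serpina9, Serpina12 and Serpina4-ps1, at places 10 to 13 of 28 clade A genes on chromosome 12, with 1 other annotated gene between them. Of the 28 genes 13 were measured here, and Serpina7 is the only clade A member on another chromosome, the X. Serpina5, the protein C inhibitor, comes next at place 14 and read low, with a change of -0.44 ± 0.18 (adjusted p = 0.134). On the other side the measured α1-antitrypsin genes had changes of -0.16 and -0.14 in their brightest probe sets. Serpina1e, at place 9 beside Serpina11, has no probe set of its own. The probe set that it shares with Serpina1c and Serpina1b was called lower over all probe sets (-0.64 ± 0.17, adjusted p = 0.0382). So was the one shared by Serpina1d and Serpina1a (-0.26 ± 0.06, adjusted p = 0.0285). At the far ends of the row Serpina6, at place 2, rose, and Serpina3n, at place 28, had 0.21 ± 0.08 (adjusted p = 0.122).

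**Figure D3:**
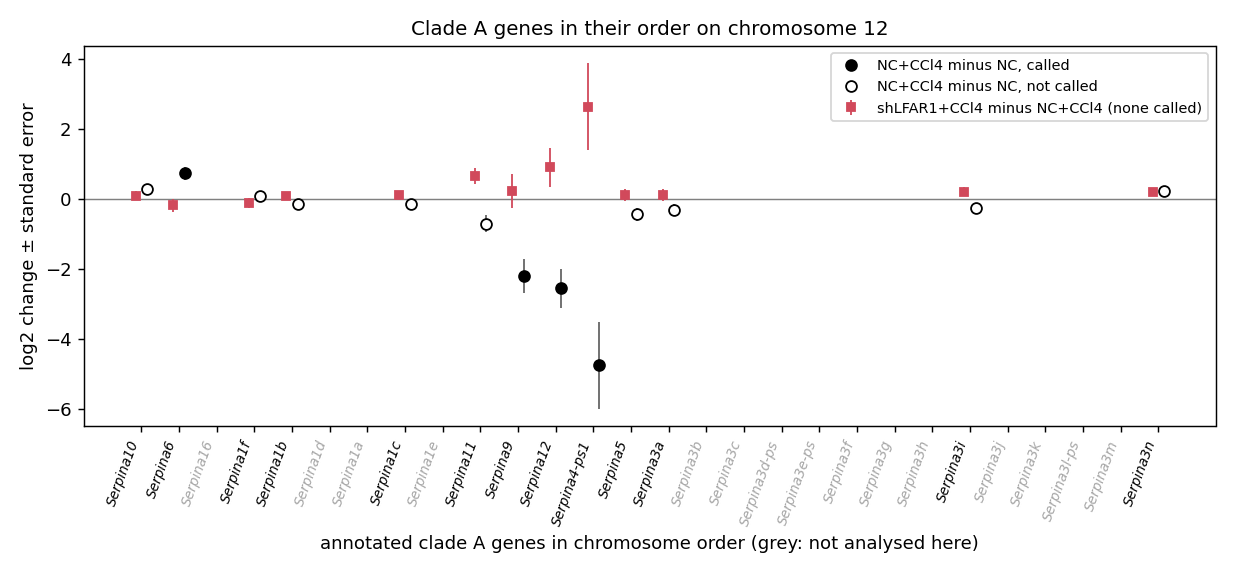
Log2 change with its standard error (y axis) of clade A genes in their order on chromosome 12 (x axis), for NC+CCl4 minus NC (circles, filled when called) and shLFAR1+CCl4 minus NC+CCl4 (squares, none called); 15 genes in grey were not analysed here. The called changes of -2.21, -2.56 and -4.76 stand side by side, and the squares at the same places are at 0.22, 0.90 and 2.64.

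In clade F, Serpinf1 was the one abundant serpin besides Serpina6 to be called in NC+CCl4 against NC. It read 12.33, 12.39 and 12.17 in NC+CCl4 and 12.67, 12.67 and 12.61 in NC, a change of -0.35 ± 0.08 (1.28-fold lower, adjusted p = 0.0169). Its second probe set, with NC+CCl4 replicate 1 as the lowest array (10.59, against 11.56 and 11.38), had a change of -0.78 ± 0.20 (adjusted p = 0.0297 over all probe sets). The call was lost without NC replicate 1 or 2 or NC+CCl4 replicate 3 (adjusted p = 0.0645, 0.0609 and 0.0591). For Serpinf2, the other clade F gene, the change was 0.01 ± 0.11. Among 11 genes of plasminogen activation, the system that Serpinf2 restrains, 4 rose and none fell. Anxa2, a plasminogen receptor at the cell surface, rose by 2.74 ± 0.50 log2 units (adjusted p = 0.0043), and vitronectin, Vtn, the highest of the list, had 0.09 ± 0.07 (adjusted p = 0.43). Of 13 proteases and cofactors of coagulation, kallikrein and complement, some of them targets of antithrombin, heparin cofactor II or C1 inhibitor, 5 fell and 1 rose. F11, the zymogen of factor XI, fell by 1.02 ± 0.15 log2 units (adjusted p = 0.00166), prothrombin, F2, the highest of the list, had -0.05 ± 0.05 (adjusted p = 0.52), and the gene that rose was Kng1.

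**Figure D4:**
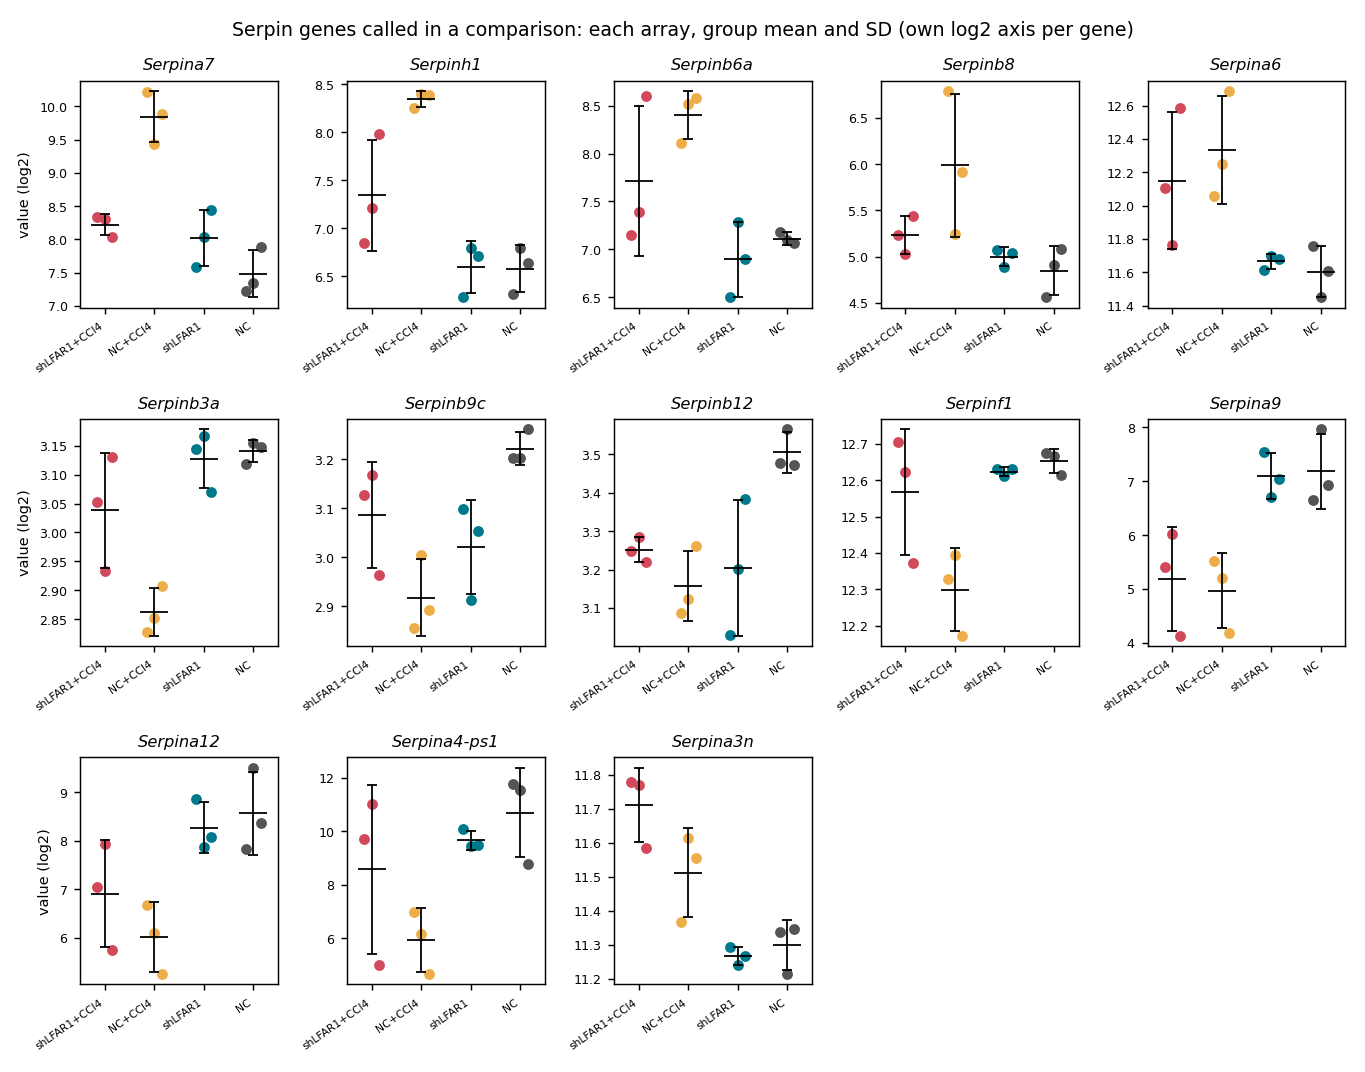
Deposited log2 value (y axis, own scale per panel) of each array for the 13 serpin genes called in any comparison, in shLFAR1+CCl4, NC+CCl4, shLFAR1 and NC, with the mean and SD of 3 arrays as bars. Serpina7 is near 8 log2 units in all 3 shLFAR1+CCl4 arrays and between 9.44 and 10.21 in NC+CCl4, and Serpina4-ps1 in shLFAR1+CCl4 spreads between 5.01 and 11.01.

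The effect of the knockdown virus in livers given CCl4 was read from shLFAR1+CCl4 against NC+CCl4, which shares the NC+CCl4 arrays with the comparison above. Of 40 serpins 1 was called, Serpina7, lower, where 0.291% of all genes were called (0.176% higher and 0.115% lower). Serpina7 read 8.33, 8.30 and 8.04 in shLFAR1+CCl4 against 10.21, 9.44 and 9.89 in NC+CCl4, a difference of -1.62 ± 0.24 (3.08-fold lower, adjusted p = 0.0186) with every array of the first group below every array of the other. With the replicate number as a block the call held (adjusted p = 0.0259). It was lost without NC+CCl4 replicate 1 or 3 (adjusted p = 0.0591 and 0.0543), without shLFAR1+CCl4 replicate 1 or 2 (0.0888 and 0.0898), and when only these 2 groups were fitted (0.255, or 0.198 with the block). The median log2 change was 0.10 over the family, 0.12 in clade A, 0.06 in clade B, 0.26 in clade F and 0.01 over all genes. Unadjusted p was under 0.05 for 12 serpins, against 14.2% of all genes. The arrays did not overlap for 3 serpins that were higher and 4 that were lower, where 7.19% and 5.11% of all genes were so separated (12.3% in either direction). Serpini1 was one that was lower, at 4.17, 4.29 and 4.32 in shLFAR1+CCl4 against 4.64, 4.49 and 4.64 in NC+CCl4 (-0.33 ± 0.11, adjusted p = 0.204). In its other probe sets, which read lower still, the groups overlapped (2.18 to 2.49 against 2.27 to 2.36, and 2.56 to 2.88 against 2.62 to 2.82).

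Several serpins that had moved with CCl4 lay unevenly in shLFAR1+CCl4. Serpinh1 read 6.84, 7.21 and 7.98, all below the NC+CCl4 arrays, with a difference of -1.0 ± 0.24 that was not called (adjusted p = 0.0969). Serpina4-ps1 read 9.71, 11.01 and 5.01, and Serpina12 read 7.05, 7.94 and 5.74, with differences from NC+CCl4 of 2.64 ± 1.24 and 0.90 ± 0.55 (adjusted p = 0.364 and 0.510). Serpinb8 read 5.23, 5.02 and 5.44, overlapping with NC+CCl4 (-0.75 ± 0.29, adjusted p = 0.267), and Serpinb6a read 7.15, 7.38 and 8.60 (-0.69 ± 0.31, adjusted p = 0.342). Replicate 3 was the array on which most of them stood near NC+CCl4. Of the 12 serpins called with CCl4 under the control virus, replicate 3 lay nearer to the NC+CCl4 mean than to the shLFAR1 mean in 8, replicate 1 in 3 and replicate 2 in 2. Serpina7 was among the 4 in which all or most replicates, replicate 3 included, lay nearer to shLFAR1. The 12 serpins were picked by their change with CCl4, and the same share was not computed over all genes, so these counts describe only them. Without replicate 3 limma called 6 serpins, where 7.29% of all genes were called in that fit, with Serpina4-ps1 (4.42), Serpina11 (0.96) and Serpinf1 (0.37) higher and Serpinh1 (-1.32), Serpinb6a (-1.14) and Serpina7 lower. Replicate 3 was singled out for lying near NC+CCl4, so leaving it out favours calls in this comparison, and nothing is read from that count. Stellate cell markers averaged 6.99 to 8.38 log2 units in shLFAR1+CCl4 against 8.48 to 8.65 in NC+CCl4, and macrophage markers 7.14 to 8.08 against 7.79 to 8.59, with none called in either list, and their part in these values was not tested. Of the serpin-related lists of proteases, collagens and hormone genes, only F11 was called here, higher by 0.86 ± 0.15 log2 units (adjusted p = 0.0349).

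shLFAR1+CCl4 against shLFAR1 gives the response to CCl4 under the knockdown virus. Of 40 serpins 1 was called, Serpina3n, higher, where 0.407% of all genes were called (0.324% higher and 0.0824% lower). Serpina3n, an acute phase inhibitor of granzyme B and other proteases, read 11.78, 11.77 and 11.58 in shLFAR1+CCl4 against 11.29, 11.24 and 11.27 in shLFAR1 (0.44 ± 0.08, 1.36-fold, adjusted p = 0.0434). In NC+CCl4 it read 11.37, 11.61 and 11.56 against 11.34, 11.21 and 11.35 in NC, also with no overlap, and was not called (0.21 ± 0.08, adjusted p = 0.122). It was called there without NC+CCl4 replicate 1 (0.29, adjusted p = 0.0405) and with quantile normalization (0.0475), and the difference between the responses under both viruses was not called (0.23 ± 0.12, adjusted p = 0.568). In shLFAR1+CCl4 against shLFAR1 the Serpina3n call was lost in 15 of 25 alternatives, among them the fit with the replicate number as a block (adjusted p = 0.0728) and each fit without 1 array of shLFAR1 (0.156 to 0.189). Neutrophil markers averaged 5.56 to 5.91 in shLFAR1+CCl4 against 4.35 to 4.77 in shLFAR1, with S100a8 and S100a9 of 5 called higher. Stellate cell markers averaged 6.99 to 8.38 against 6.28 to 6.85, and macrophage markers 7.14 to 8.08 against 6.57 to 6.82, with none called in either list. The part of these cell types in the Serpina3n result was not tested. In the serpin-related lists of proteases, collagens and hormone genes, Ctss and Kng1 were called here, both higher, and no other gene was. Serpina7 differed between shLFAR1+CCl4 and shLFAR1 by 0.20 ± 0.24 (adjusted p = 0.835), with overlapping arrays. Serpina9 read 5.41, 6.02 and 4.13 in shLFAR1+CCl4 and 7.54, 6.70 and 7.04 in shLFAR1, a difference of -1.91 ± 0.48 without overlap that was not called (adjusted p = 0.131). Serpinh1 differed by 0.75 ± 0.24 (adjusted p = 0.254). The median log2 change was 0.04 over the family and -0.03 over all genes, and 9 serpins had an unadjusted p under 0.05, against 10.8% of all genes. The arrays did not overlap for 6 serpins that were higher and 2 that were lower, where 8.41% and 11.7% of all genes were so separated (20.1% in either direction).

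shLFAR1 against NC, the effect of the knockdown virus without CCl4, called none of the 40 serpins and 0 of 18194 genes by limma, and 3 serpins had an unadjusted p under 0.05, against 2.77% of all genes. Serpina7 was among these, with a difference of 0.54 ± 0.24 and overlapping arrays. The arrays did not overlap for 2 serpins that were higher and 2 that were lower, where 6.01% and 4.76% of all genes were so separated (10.8% in either direction). The difference between the CCl4 responses under both viruses was tested as an interaction, in which limma called no serpin and 0.022% of all genes, and 8 serpins had an unadjusted p under 0.05, against 9.51% of all genes. For Serpina7 the response under the knockdown virus minus that under the control virus was -2.16 ± 0.34 log2 units (adjusted p = 0.0716). It passed the threshold without shLFAR1+CCl4 replicate 3 (adjusted p = 0.00958) or NC+CCl4 replicate 2 (0.0174). For Serpinh1 the interaction was -1.02 ± 0.34 (adjusted p = 0.385), and 0.0149 without shLFAR1+CCl4 replicate 3. Without that array 5 serpins were called in the interaction, where 3.19% of all genes were called in that fit. Since the array was singled out for lying near NC+CCl4, leaving it out favours calls here too.

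RefSeq promoters on GRCm38.p6, 300 bases long, were given for 34 of the 40 genes. A serpin gene was counted when any of its promoters held a motif. The shares of all are over single promoters, so counts and shares differ in unit. GTTAAT, the HNF1 motif, was found on either strand in 5 of these 34 (Serpina1b, Serpina1c, Serpina7, Serpinb8 and Serpini2) and in 7.10% of 32851 promoters. CAGAC, the Smad box, was found in 18 of 34 and in 49.6% of all promoters. The STAT site TTCNNNGAA was found in 6 and the heat shock element core GAANNTTC in 5, against 8.30% and 7.86% of all, and these motifs may share bases with each other. The promoters of the gene with the largest rise, of the collagen chaperone and of vaspin, one of the genes that fell, are shown, with GTTAAT and with CAGAC or GTCTG in capitals.
Serpina7 (chrX:139085187-139085486, minus strand): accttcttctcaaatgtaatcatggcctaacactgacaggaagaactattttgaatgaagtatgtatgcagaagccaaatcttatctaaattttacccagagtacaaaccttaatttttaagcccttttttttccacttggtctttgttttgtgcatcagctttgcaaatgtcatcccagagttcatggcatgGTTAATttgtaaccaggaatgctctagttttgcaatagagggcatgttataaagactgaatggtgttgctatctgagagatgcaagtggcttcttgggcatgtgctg
Serpinh1 (chr7:99353190-99353489, minus strand): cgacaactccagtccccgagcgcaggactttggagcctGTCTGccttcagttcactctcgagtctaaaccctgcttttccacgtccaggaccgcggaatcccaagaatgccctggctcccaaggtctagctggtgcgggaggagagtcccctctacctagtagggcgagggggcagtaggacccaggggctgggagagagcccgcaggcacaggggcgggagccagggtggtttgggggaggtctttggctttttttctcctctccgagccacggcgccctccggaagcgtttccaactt
Serpina12 (chr12:104044394-104044693, minus strand): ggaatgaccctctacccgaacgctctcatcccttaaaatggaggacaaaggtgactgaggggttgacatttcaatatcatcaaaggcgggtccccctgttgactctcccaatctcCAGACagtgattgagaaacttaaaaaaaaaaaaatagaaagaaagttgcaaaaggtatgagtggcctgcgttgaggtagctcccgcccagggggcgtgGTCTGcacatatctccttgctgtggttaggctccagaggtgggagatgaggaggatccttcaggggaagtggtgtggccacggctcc
Serpina7 has 2 annotated promoters, and the 1 shown holds 1 GTTAAT and no CAGAC. Serpinh1 holds 1 CAGAC as GTCTG and Serpina12 holds 2, and GTTAAT is in neither Serpinh1 nor Serpina12. A match is a description of letters and not of binding, and nothing is read from a missing one.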

How the data were processed

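Total RNA from 12 livers was hybridized to Affymetrix mouse genome arrays. The authors deposited log2 values (1.81 to 14.5) that were already summarized and normalized, by a method not given in the sources used here, and without detection calls. The number of arrays limits the precision. Of 45101 probe sets 34958 had 1 gene symbol, 932 several and 9211 none. Serpin symbols were on 59 probe sets, 56 of them with 1 symbol, and 12 members had over 1 probe set, none with calls in opposite directions. No further normalization or filter was applied.

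limma 3.58.1 (lmFit, eBayes with an intensity trend) in R 4.3.3 was fitted to all 12 arrays with 4 group means, leaving 8 residual degrees of freedom. Tests were two-sided and p was adjusted by Benjamini-Hochberg over 18194 genes. The members and the lists of related genes and markers were chosen with earlier results of these data known, so lists are described by counts and medians only. Named members were those called in any comparison, the 8 with the highest means, the highest of each clade and the 5 with the largest changes in NC+CCl4 against NC and in shLFAR1+CCl4 against NC+CCl4. Serpina10, Serpina11, Serpina5, Serpinb9 and Serpinb1a were named after their values were seen. Arrays of NC+CCl4 and shLFAR1+CCl4 with the same replicate number deviated together (correlations 0.126, 0.229 and 0.192 across genes). Same-number correlations were also positive throughout for NC with shLFAR1+CCl4 (0.138, 0.0837 and 0.0467) and for NC+CCl4 with shLFAR1 (0.0305, 0.0202 and 0.0245). In the remaining pairs of groups the signs were mixed. The labels give no pairing, and 3 arrays per group cannot establish one, so the replicate block is only an alternative fit.

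Alternatives were quantile normalization, no trend, robust variance, array weights, fitting only the groups compared and an equal-variance t-test. Others were the methods' array threshold (fold over 1.6, unadjusted), a filter on low values, other probe set choices, a replicate block and leaving out each array. The array methods give that threshold without naming a test. Leaving out NC+CCl4 replicate 1 and shLFAR1+CCl4 replicate 3 together, and other additions listed with their values, were chosen after seeing the data. Promoters came from RefSeq (GRCm38.p6), and that annotation gave gene order only. Tables were made with Python 3.11.15.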

Additional observations from a re-analysis of the deposited data

How the results depend on the processing

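In NC+CCl4 against NC, 12 serpins were called, and between 4 and 13 when 1 array was left out (4 without NC replicate 2, 5 without NC replicate 1 or NC+CCl4 replicate 3, and 7 without NC replicate 3). The count was 2 with an equal-variance t-test after Benjamini-Hochberg adjustment. It was 7 with that test at the methods' array threshold (fold over 1.6, unadjusted p), and 8 to 14 in the other settings. The Serpinh1 call held in all 25 alternatives, those of Serpina7, Serpina12 and Serpina9 in all but the adjusted t-test, and those of Serpinb12, Serpinb3a and Serpinb9c in 10 or 11. With the replicate block Serpinb9c lost its call (adjusted p = 0.0553), Serpina11 gained one, and no other call changed in this comparison. In shLFAR1+CCl4 against shLFAR1, 1 serpin was called, and 0 to 1 without 1 array. It was 0 without the intensity trend, with the groups compared only, with the adjusted t-test, with the mean of probe sets and with the replicate block, 3 with array weights and 4 at a fold over 1.6 with limma's unadjusted p. In shLFAR1+CCl4 against NC+CCl4, 1 was called, and 0 to 6 without 1 array (6 without shLFAR1+CCl4 replicate 3 and 2 without NC+CCl4 replicate 2). It was 4 with array weights, 0 with the groups compared only, with or without the block, and with the adjusted t-test, 4 and 2 at a fold over 1.6 with limma's and the t-test's unadjusted p, and 7 without NC+CCl4 replicate 1 and shLFAR1+CCl4 replicate 3. In the interaction none was called, and 0 to 5 without 1 array, 3 with array weights, 4 and 2 at a fold over 1.6, and 6 without both arrays. In shLFAR1 against NC limma called 0 in every fit without 1 array. The cause of these differences was not tested.

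The clade B median in NC+CCl4 against NC was -0.05, between -0.098 and 0.035 without 1 array (0.035 without NC+CCl4 replicate 3), and 0.60 over the 4 genes that passed a filter on low values. In shLFAR1+CCl4 against NC+CCl4 it was 0.06, and -0.40 over those 4. Of the 4, Serpinb8 passed the filter through its NC+CCl4 mean alone (5.98, against 5.23, 5.00 and 4.85 in shLFAR1+CCl4, shLFAR1 and NC), so nothing is read from these 2 medians. Over the 3 clade B genes whose mean over all arrays lay above the median gene they were 0.06 and -0.10. The clade A and F medians kept their sign. Reversed, among values never called, were Serpina7 in shLFAR1+CCl4 against shLFAR1 without shLFAR1 replicate 1 (-0.014; range without 1 array -0.014 to 0.41) and Serpina4-ps1 in that comparison without shLFAR1+CCl4 replicate 3 (0.69, also without both arrays; range without 1 array -2.31 to 0.69). Quantile normalization moved the median of all genes by less than 0.1 log2 units.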
